A study of Mus musculus with 6 samples.

Results

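Small leucine-rich proteoglycans (SLRPs) and the large proteoglycan versican were followed as 10 genes in mouse liver, with and without Cyr61, a secreted matricellular protein gene also called Ccn1. The 10 genes, Lum, Dcn, Bgn, Fmod, Ogn, Prelp, Aspn, Omd, Podn and Vcan, were chosen by symbol as matrix proteoglycan genes and all 10 were found among the 24411 gene symbols of each library. The samples were 3 Cyr61 KO livers and 3 Control livers, taken from male mice aged 24 weeks after 12 weeks on a NASH diet, which brings about non-alcoholic steatohepatitis, and both groups have the strain label Cyr61fl/fl. The labels name no Cre driver and no cell type in which the gene was removed, nor whether the 6 libraries stand for 6 mice, so the p-values speak of how these libraries vary, which may be technical.

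Matrix proteoglycans are secreted core proteins, many of which carry glycosaminoglycan chains. SLRP core proteins are built of leucine-rich repeats that bind fibrillar collagen and set how thick and how evenly spaced its fibrils become, and decorin (Dcn) also binds TGF-beta. Versican (Vcan) is a hyaluronan-binding chondroitin sulfate proteoglycan of loose, provisional matrix. In liver these proteins come mainly from hepatic stellate cells and portal fibroblasts and accumulate in scar tissue, which is the matrix that a fibrosing NASH diet builds up.

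The libraries held 31133292 to 40377742 counts in genes in Cyr61 KO livers and 21032878 to 34827903 in Control livers. One library differed from the rest, Control replicate 2, in which 50.9% of reads fell in genes (82.8% to 87.6% elsewhere). It also held Malat1 at 3738 CPM and Dmbt1 at 1151 CPM, where the other libraries had 56.5 to 128 CPM and up to 0.449 CPM. Malat1 and Dmbt1 were singled out after their values were seen. Hepatocyte markers summed to 116767 to 139028 CPM in Cyr61 KO livers and 45043 to 105842 CPM in Control livers, the lowest being Control replicate 2. Cyr61 was measured at 3.77, 2.66 and 3.14 CPM in Cyr61 KO livers, against 15.6, 32.4 and 27.8 CPM in Control livers, so the targeted gene followed the labels. Levels are in CPM, counts scaled by TMM-adjusted library size, a call is a Benjamini-Hochberg adjusted p below 0.05 by edgeR's quasi-likelihood test over the 13563 genes tested, and log2 fold changes are Cyr61 KO over Control.

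Lum, which encodes lumican, was the 1 member called, lower in Cyr61 KO livers, while Dcn, Bgn, Fmod, Ogn, Prelp, Omd, Podn and Vcan did not pass and Aspn was too low to test. Of the 9 tested members 1 was called lower and 0 higher, where 2.37% of all tested genes were called lower and 1.07% higher (322 and 145 genes, or 23 and 27 when libraries were scaled by their totals alone). The median log2 fold change of the 9 was -0.85, beside -0.03 over all tested genes, and all 9 values were below 0, as were 51.6% of all tested genes. An unadjusted p under 0.05 was reached by 3 of the 9, all lower (Lum, Dcn and Vcan), and by 16.1% of all tested genes in that direction (27.4% in either direction). The groups did not overlap, with Cyr61 KO lower, in 5 of the 9 (Lum, Dcn, Bgn, Podn and Vcan), where 17.9% of all tested genes did so. In 0 of the 9 did every Cyr61 KO library lie above every Control library, against 17.3% of all tested genes. Vcan passed the filter on low counts through the Control libraries alone, so its place among the tested genes was not independent of its difference. Cyr61 KO replicate 1 was the lowest of the 3 knockouts in 8 of the 9 tested members, and Control replicate 2 the highest of the 3 controls in 8 of the 9. In whole liver, fewer cells that make a transcript and less of it per cell cannot be told apart.

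**Figure D1:**
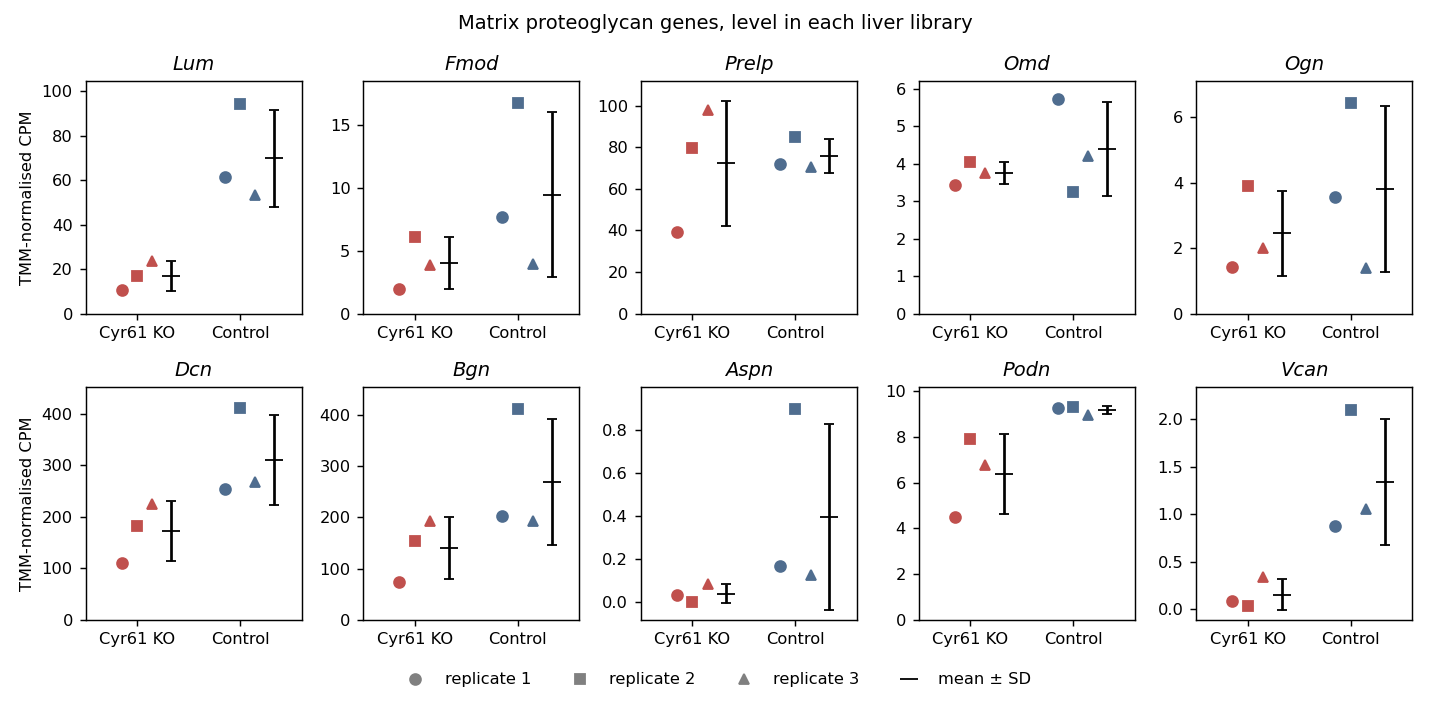
TMM-normalised CPM (vertical axis, from 0 except where an error bar runs below it) of each of the 10 proteoglycan genes in 3 Cyr61 KO and 3 Control liver libraries; symbols mark the replicate, and the bar gives the mean ± SD. Lum lies at 10.4 to 23.7 CPM in all Cyr61 KO livers and at 53.5 to 94.5 CPM in all Control livers, while the groups of Prelp, Omd, Ogn and Fmod overlap.

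Lumican is a class II SLRP that carries keratan sulfate and binds collagen fibrils. The gene lies on chromosome 10 from 97565128 to 97572703 (GRCm38, plus strand). Lum was measured at 10.4, 17.0 and 23.7 CPM in Cyr61 KO livers, against 61.4, 94.5 and 53.5 CPM in Control livers. Every Cyr61 KO library lay below every Control library, with a clear gap between the groups. The means were 17.0 ± 6.65 CPM in Cyr61 KO livers and 69.8 ± 21.7 CPM in Control livers (SD, n = 3 each), a knockout mean at 24.4% of that of the controls. On the log2 scale the difference was -2.03 ± 0.34 (SE; edgeR adjusted p = 0.0272), and 4.78% of all tested genes had a lower one. Lum was still called when any single control was dropped, down to -1.73 without Control replicate 2 (edgeR adjusted p = 0.0478), or when Cyr61 KO replicate 3 was dropped. It was not called when Cyr61 KO replicate 1 was dropped, at -1.76 (edgeR adjusted p = 0.0812), when Cyr61 KO replicate 2 was dropped, at -2.01 (edgeR adjusted p = 0.116), or when libraries were scaled by their totals alone, at -2.34 (edgeR adjusted p = 0.0717). The share of all tested genes called lower was 0.949%, 1.22% and 5.17% when Control replicates 1, 2 and 3 were dropped. It was 0.0215%, 0.086% and 4.35% when Cyr61 KO replicates 1, 2 and 3 were dropped, and 0.17% with library totals.

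The other class II members were lower in some libraries only. Fmod, the gene of fibromodulin, another collagen-binding keratan sulfate SLRP, lies on chromosome 1 from 134037254 to 134048277. Fmod was measured at 1.99, 6.10 and 3.90 CPM in Cyr61 KO livers, against 7.70, 16.7 and 3.93 CPM in Control livers. Control replicate 3 lay inside the knockout range and Control replicate 2 far above every other library. The log2 fold change of Fmod was -1.24 ± 0.56 (SE; edgeR adjusted p = 0.192), and it was -0.53 without Control replicate 2. Prelp, whose protein links collagen to basement membrane heparan sulfate, lies on the same chromosome from 133910304 to 133921414. Prelp was measured at 39.0, 79.6 and 97.9 CPM in Cyr61 KO livers, against 71.8, 85.1 and 70.4 CPM in Control livers. Both the lowest and the highest of the 6 libraries were knockouts, and the log2 fold change was -0.07 ± 0.32 (SE; edgeR adjusted p = 0.902). Dropping Cyr61 KO replicate 1 turned the sign, to 0.24. Omd, the gene of osteomodulin, best known as a mineralised-tissue SLRP, was at 3.45, 4.04 and 3.76 CPM in Cyr61 KO livers, against 5.73, 3.24 and 4.21 CPM in Control livers. The lowest of the 6 Omd values was that of Control replicate 2, and the log2 fold change was -0.23 ± 0.33 (SE; edgeR adjusted p = 0.667).

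Dcn and Bgn, the class I members, were the most abundant of the set and did not pass. Dcn encodes decorin, whose single dermatan or chondroitin sulfate chain spans neighbouring collagen fibrils, and lies on chromosome 10 from 97479609 to 97518143. Dcn was measured at 110.8, 182 and 226 CPM in Cyr61 KO livers, against 255, 411 and 267 CPM in Control livers. The groups did not overlap, but Cyr61 KO replicate 3 and Control replicate 1 were close. The log2 fold change was -0.85 ± 0.34 (SE; edgeR adjusted p = 0.1503), and limma voom with quality weights called Dcn lower at -0.55 (adjusted p = 0.0473), where 17.8% of all tested genes were called lower. Bgn encodes biglycan, which carries glycosaminoglycan chains at its N terminus and in soluble form is known to signal through TLR2 and TLR4, and lies on chromosome X from 73483602 to 73495933. Bgn was measured at 73.9, 154 and 192.4 CPM in Cyr61 KO livers, against 202.5, 412 and 193.4 CPM in Control livers. The groups did not overlap, but Cyr61 KO replicate 3 and Control replicate 3 were almost level. The log2 fold change was -0.94 ± 0.43 (SE; edgeR adjusted p = 0.191), and -0.48 without Control replicate 2. Aspn encodes asporin, a class I relative that binds TGF-beta, and had 1, 0 and 3 counts in Cyr61 KO livers, against 6, 26 and 4 counts in Control livers. Every control was above every knockout, and most of the Aspn counts came from Control replicate 2. The 0 in Cyr61 KO replicate 2 allows a level of up to 0.106 CPM (3 counts, for counting error only), and Aspn did not pass the filter.

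The class III and class V members were low and did not pass. Ogn encodes osteoglycin, also called mimecan, and was measured at 1.43, 3.90 and 2.02 CPM in Cyr61 KO livers, against 3.57, 6.44 and 1.39 CPM in Control livers. The lowest of the 6 Ogn values was a control, and the log2 fold change was -0.63 ± 0.59 (SE; edgeR adjusted p = 0.508), or -0.01 without Control replicate 2. Podn encodes podocan, a collagen-binding SLRP, and was measured at 4.49, 7.91 and 6.79 CPM in Cyr61 KO livers, against 9.27, 9.29 and 8.97 CPM in Control livers. The controls had an SD of 0.179 CPM and lay above every knockout, and the log2 fold change was -0.52 ± 0.27 (SE; edgeR adjusted p = 0.247). Podn lies on chromosome 4 from 108014791 to 108096445, and in GENCODE M21 it overlaps Scp2 on the same strand through a long transcript, so that reads shared with Scp2 could be lost or split.

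Vcan, the hyalectan of the set, had the lowest log2 fold change of the tested members. The gene lies on chromosome 13 from 89655312 to 89742509 (minus strand). Vcan had 3, 1 and 12 counts in Cyr61 KO livers, against 31, 61 and 34 counts in Control livers, which is 0.0891, 0.0355 and 0.336 CPM against 0.871, 2.10 and 1.05 CPM. Every control was above every knockout, and Control replicate 2 was the highest. The log2 fold change was -3.05 ± 0.78 (SE) and missed the threshold (edgeR adjusted p = 0.066). DESeq2 called it at -3.05 (adjusted p = 0.0038), where 9.84% of all genes given an adjusted p were called lower, and edgeR called it without Cyr61 KO replicate 3 at -4.29 (adjusted p = 0.0304). With any other library dropped edgeR did not call it, and the value was -2.54 (adjusted p = 0.112) when that was Control replicate 2, -2.76 (adjusted p = 0.146) when it was Cyr61 KO replicate 1 and -2.61 (adjusted p = 0.239) when it was Cyr61 KO replicate 2. With so few counts, these libraries bound the Vcan fold only loosely.

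**Figure D2:**
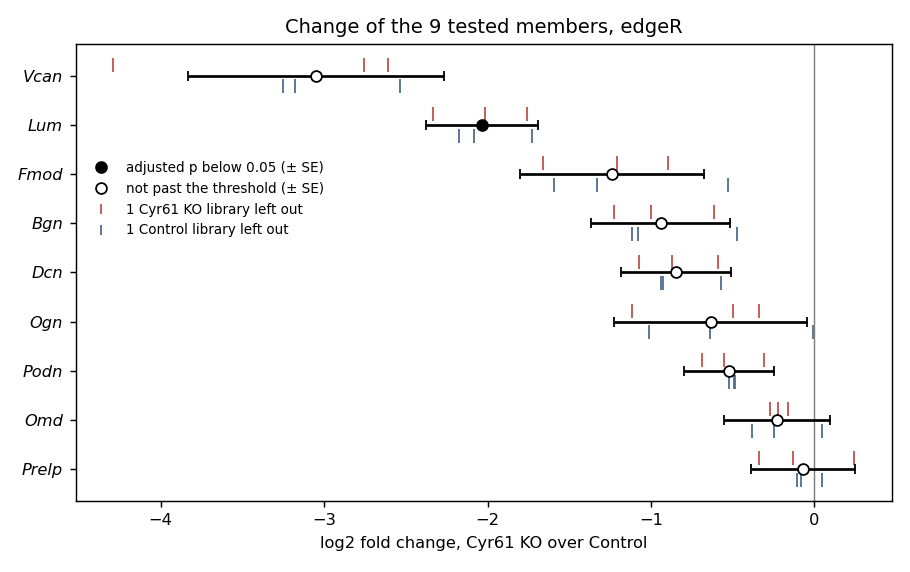
Log2 fold change of Cyr61 KO over Control (horizontal axis) for the 9 tested proteoglycan genes, with the standard error of edgeR's fit; filled circles mark an adjusted p below 0.05, and ticks give the value with 1 Cyr61 KO library (above) or 1 Control library (below) left out. Lum at -2.03 is the 1 filled circle, Vcan at -3.05 has the widest error, and the ticks of Prelp, Omd and Ogn come close to or cross 0.

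Lum was also compared with the other abundant members within each library, which needs no scaling between libraries. The 8 ratios were not planned and use the same libraries in which Lum was called, so they are not independent of that call. How often ratios of other genes lie apart was not tested. The ratio of Lum to Dcn counts was 0.0941, 0.0931 and 0.105 in Cyr61 KO livers, against 0.241, 0.230 and 0.201 in Control livers. The groups did not overlap and the means were 0.0974 ± 0.00666 in Cyr61 KO livers and 0.224 ± 0.0209 in Control livers (SD, n = 3 each), a log2 difference of -1.20. The two-sided exact permutation p was 0.1, the smallest that 3 libraries against 3 can give, and 0.16 adjusted over the 8 ratios compared. Control replicate 2, the library that stood apart, lay between the other controls in this ratio. The ratio of Lum to Bgn counts was 0.125 ± 0.0156 in Cyr61 KO livers and 0.270 ± 0.0373 in Control livers (SD, n = 3 each; exact permutation p = 0.1), again without overlap. The ratio of Prelp to Dcn went the other way, at 0.408 ± 0.0479 in Cyr61 KO livers and 0.251 ± 0.0391 in Control livers (SD, n = 3 each; exact permutation p = 0.1). The ratio of Bgn to Dcn overlapped between the groups, at 0.788 ± 0.106 in Cyr61 KO livers and 0.840 ± 0.144 in Control livers (SD, n = 3 each; exact permutation p = 0.6). Of the 8 ratios, Lum to Prelp and Vcan to Dcn were also apart, both lower in Cyr61 KO livers, while Fmod to Dcn and Podn to Dcn overlapped.

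Levels were compared between genes as CPM per kilobase of exon, with exon lengths from GENCODE M21. In Cyr61 KO livers the order was Dcn at 29.6 ± 9.94, Bgn at 23.0 ± 9.92, Prelp at 19.96 ± 8.33 and Lum at 6.96 ± 2.72 CPM per kb, and in Control livers it was Dcn at 53.2 ± 14.9, Bgn at 44.1 ± 20.2, Lum at 28.5 ± 8.88 and Prelp at 21.0 ± 2.24 CPM per kb (SD, n = 3 each). Lum thus stood below every Prelp value in Cyr61 KO livers, whereas the ranges of the 2 genes overlapped in Control livers. The ranges of Dcn and Bgn overlapped in either group, as did those of Bgn and Prelp in Cyr61 KO livers and of Bgn and Lum in Control livers. Omd, Podn, Fmod and Ogn followed, each at a mean of at most 1.67 CPM per kb in Cyr61 KO livers and 2.86 CPM per kb in Control livers, and their neighbours in the order overlapped. Aspn and Vcan were lowest, at means of 0.0161 and 0.0106 CPM per kb in Cyr61 KO livers and 0.168 and 0.0927 CPM per kb in Control livers.

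As a share of the summed CPM per kb of all 10 genes, Lum made up 8.53%, 7.49% and 8.63% in Cyr61 KO livers, against 19.2%, 18.2% and 17.5% in Control livers. Prelp made up 21.6%, 23.8% and 24.1% in Cyr61 KO livers, against 15.2%, 11.1% and 15.6% in Control livers. Both shares were apart between the groups, while the share of Dcn was 35.4% ± 2.30 in Cyr61 KO livers and 34.5% ± 1.92 in Control livers (SD, n = 3 each) and that of Bgn 26.6% ± 2.03 and 27.6% ± 3.70. The small shares of Aspn and Vcan were also apart, lower in Cyr61 KO livers, at means of 0.0190% and 0.0119% against 0.0922% and 0.0577%. A share depends on the other genes in the sum, and the CPM of Prelp itself overlapped between the groups (log2 fold change -0.07). The sum itself was 49.9, 92.4 and 112 CPM per kb in Cyr61 KO livers, against 130.3, 212 and 125 CPM per kb in Control livers. With the length of the principal transcript in place of all exons, which was chosen after the data were seen, the Lum share was 3.68% ± 0.25 in Cyr61 KO livers and 8.23% ± 0.549 in Control livers (SD, n = 3 each), and the order of the first 4 genes stayed as given for each group, with Bgn then apart from the third gene in each. Under that length the mean of Vcan was above that of Aspn in both groups, with overlapping ranges.

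**Figure D3:**
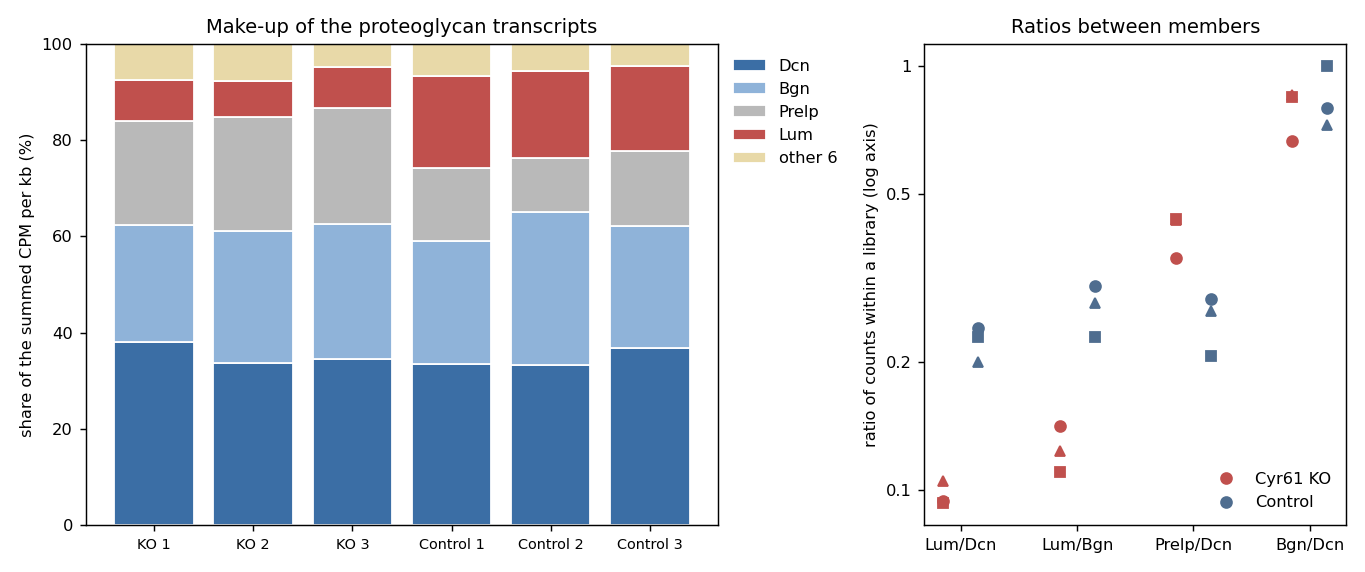
Left, share of the summed CPM per kb of the 10 proteoglycan genes (vertical axis, percent) taken by Dcn, Bgn, Prelp, Lum and the other 6 genes in each library, Cyr61 KO left of Control; right, ratios of counts between 2 members within a library (log axis), with symbols for the replicate. The Lum share is 7.49% to 8.63% in Cyr61 KO livers and 17.5% to 19.2% in Control livers, and the ratios of Lum to Dcn and to Bgn are apart between the groups while Bgn to Dcn overlaps.

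Most members lie beside another SLRP gene. Dcn and Lum are neighbours on chromosome 10, 47.0 kb apart with 0 protein-coding genes between them, and differed in their fold change as given above. The next genes on that side, Kera (keratocan) and Epyc (epiphycan), had 0 counts in every library but 2 counts of Epyc in Control replicate 1. Prelp and Fmod lie 116 kb apart on chromosome 1 with 0 protein-coding genes between them, beside Optc (opticin), which had 2 to 5 counts in Cyr61 KO livers and 3 to 7 in Control livers. Aspn, Omd and Ogn lie on chromosome 13 in a row, from 49544443 to 49567565, from 49582462 to 49592822 and from 49608046 to 49624501, next to Ecm2, and all 4 lie opposite Cenpp on the other strand. Reads on the strand opposite to the 10 members numbered 0 to 6 per library in Cyr61 KO livers and 3 to 12 in Control livers, over all 10 together.

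The promoter windows of 4 members are shown because these genes span the range of responses: Vcan had the lowest fold change of the tested members, Bgn was abundant and lower without passing, Prelp hardly differed, and Ogn held the single match to a TEAD motif. They are RefSeq windows on GRCm38.p6, 250 bases before to 50 bases after the start of the gene, 5′ to 3′ on the gene's strand, at chr13:89742463-89742762 (minus) for Vcan, chrX:73483351-73483650 (plus) for Bgn, chr1:133921352-133921651 (minus) for Prelp and chr13:49607765-49608064 (plus) for Ogn. Capitals mark the motifs found, and of these windows that of Ogn holds any.
Vcan: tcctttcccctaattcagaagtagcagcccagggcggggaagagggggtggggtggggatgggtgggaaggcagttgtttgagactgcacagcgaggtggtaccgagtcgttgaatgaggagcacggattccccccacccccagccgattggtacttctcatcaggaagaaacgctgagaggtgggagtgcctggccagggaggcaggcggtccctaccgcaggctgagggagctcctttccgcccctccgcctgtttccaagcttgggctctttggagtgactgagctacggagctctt
Bgn: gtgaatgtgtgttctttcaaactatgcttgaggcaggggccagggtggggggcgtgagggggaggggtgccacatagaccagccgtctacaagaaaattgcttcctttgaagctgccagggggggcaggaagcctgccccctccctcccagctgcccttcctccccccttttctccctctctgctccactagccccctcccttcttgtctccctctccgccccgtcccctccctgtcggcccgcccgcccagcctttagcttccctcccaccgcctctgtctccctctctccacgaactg
Prelp: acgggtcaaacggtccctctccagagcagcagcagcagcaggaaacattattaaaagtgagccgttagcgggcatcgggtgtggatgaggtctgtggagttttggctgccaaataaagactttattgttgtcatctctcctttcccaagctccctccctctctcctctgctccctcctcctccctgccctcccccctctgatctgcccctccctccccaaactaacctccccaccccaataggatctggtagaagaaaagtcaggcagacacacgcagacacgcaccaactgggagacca
Ogn: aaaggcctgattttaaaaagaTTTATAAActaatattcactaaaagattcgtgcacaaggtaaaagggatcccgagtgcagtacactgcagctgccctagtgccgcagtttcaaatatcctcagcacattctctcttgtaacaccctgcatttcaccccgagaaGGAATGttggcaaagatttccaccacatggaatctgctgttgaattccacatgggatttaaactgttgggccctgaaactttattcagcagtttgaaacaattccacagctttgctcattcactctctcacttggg

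RefSeq windows were found for 8 of the 10 members, 9 windows in all, and not for Lum and Dcn. On both strands, the AP-1 motif TGANTCA was in 0 of the 9 windows and in 7.81% of 32851 windows of all genes, the TEAD motif GGAATG in 1 of 9 and in 14.7% of all, and the TATA motif TATAAA in 2 of 9, those of Aspn and Ogn, and in 13.6% of all. In the Ogn window the TATAAA letters and their reverse complement overlap. Relative to the start of the gene the TATAAA matches lie at -207 and -178 in Aspn and at -229 and -227 in Ogn. The windows ranged in GC content from 31.0% for Aspn to 77.0% for the upstream window of Podn, with 61.0% for Vcan, 63.7% for Bgn, 55.3% for Prelp and 42.3% for Ogn, beside a median of 52.7% over all windows. These matches describe letters in the windows and not bound sites.

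Genes whose profile over the 6 libraries was most like that of a member were found by the root-mean-square (RMS) difference of centred log2 CPM among 11884 genes with a mean CPM of at least 1. For Lum they were Scube1, Kdelr3 and Rab7b, at RMS differences of 0.168, 0.175 and 0.178, where the median gene was at 1.17. For Dcn they were Tbx20, Osbpl5 and Dos, at 0.0634, 0.0864 and 0.101, with a median of 0.693. For Bgn they were Cnrip1, Osmr and Snai1, at 0.0926, 0.106 and 0.119, with a median of 0.822. For Vcan they were Dusp2, Themis and Casp4, at 0.187, 0.252 and 0.261, with a median of 1.64. No other member was among the 3 nearest of any of these 4.

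Relatives of the set outside the 10 had no call by edgeR. Of 12 other SLRPs and hyalectans 3 were tested, 0 were called by edgeR or DESeq2 and 1 had an unadjusted p under 0.05 (median log2 fold change -0.27). Tsku, the gene of the secreted SLRP tsukushi, which the liver releases into blood, was at -0.27 ± 0.51 (SE), and Ecm2 at -1.29 ± 0.54 (SE; edgeR adjusted p = 0.758 and 0.167). Acan, the gene of the cartilage proteoglycan aggrecan, had 0 counts in all 6 libraries, which allows up to 0.0841 to 0.106 CPM in Cyr61 KO livers and 0.0843 to 0.103 CPM in Control livers (3 counts, for counting error only). Of 28 genes that make chondroitin, dermatan and keratan sulfate chains 24 were tested and 0 called by edgeR or DESeq2. Limma voom called 5 of them lower and 1 higher, where it called 2409 (17.8%) of the 13563 tested genes lower and 2074 higher. With Cyr61 KO replicate 3 dropped, edgeR called 1 of them lower, where 4.35% of all tested genes were. The median was -0.25, and 4 of the 24 had an unadjusted p under 0.05, where 27.4% of all tested genes did. Ugdh, which makes the UDP-glucuronic acid needed for chondroitin and dermatan sulfate, was at -0.43 ± 0.31, and Slc35d1, a nucleotide sugar transporter, at 0.66 ± 0.39 (SE; edgeR adjusted p = 0.383 and 0.291).

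Heparan sulfate proteoglycans, listed with Srgn and Esm1, had 0 of 15 tested members called by edgeR and 3 at an unadjusted p under 0.05 (27.4% of all tested genes), at a median of -0.26. The 3 were Srgn at -1.72 and Esm1 at -2.27 (edgeR adjusted p = 0.0521 and 0.0614), and Col18a1, which was higher. Srgn and Esm1 were named after their values were seen. DESeq2 called 2 lower and 1 higher, and 9.84% of all genes given an adjusted p lower. Limma voom called 2 lower and 3 higher, and 17.8% of all tested genes lower. When Control replicate 3 or Cyr61 KO replicate 3 was dropped, edgeR called 1 of the list lower, where 5.17% and 4.35% of all tested genes were. Col18a1, whose collagen XVIII carries heparan sulfate in basement membranes, averaged 1445 CPM in Cyr61 KO livers and 695 CPM in Control livers, at a log2 fold change of 1.05 ± 0.38 (SE; edgeR adjusted p = 0.122). Sdc4, a cell-surface syndecan, was at 0.22 ± 0.35 (SE; edgeR adjusted p = 0.706). Col18a1 differed in sign from every tested member of the set, but it did not pass. A value above 0 was not particular to it. Of the 15 tested genes of the list 8 were below 0, where 51.6% of all tested genes were.

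Hyaluronan and versican turnover genes had 1 of 13 tested members called lower and 0 higher (median -0.46), where 2.37% of all tested genes were called lower. The called gene was Hapln1, a link protein that stabilises the binding of versican to hyaluronan. Hapln1 was at 0, 0.0355 and 0.0561 CPM in Cyr61 KO livers, against 1.91, 0.895 and 0.588 CPM in Control livers. The groups did not overlap and the fitted log2 fold change was -5.04 ± 0.90 (SE; edgeR adjusted p = 0.0300), a value that rests on 0, 1 and 2 counts in the knockouts, against 68, 26 and 19 in the controls. Like Vcan, Hapln1 passed the filter on low counts through the Control libraries alone, so its call is not independent of the filter. In that list 0 genes were called when Control replicate 1 or either of Cyr61 KO replicates 1 and 2 was dropped, 3 when Control replicate 3 was dropped and 2 when Cyr61 KO replicate 3 was dropped, while library totals gave 0 and DESeq2 3 lower and 2 higher.

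Collagens and other matrix partners of SLRPs, whose fibrils these proteins coat, had 7 of 18 tested members called lower and 0 higher, at a median of -1.54. Of all tested genes 2.37% were called lower and 1.07% higher. Col1a1 and Col1a2, the chains of type I collagen, were at -2.27 ± 0.32 and -1.67 ± 0.29, Col5a2, of the type V collagen that starts fibrils, at -1.76 ± 0.27, and Eln (elastin) at -2.33 ± 0.40 (SE; edgeR adjusted p = 0.0184, 0.0272, 0.0237 and 0.0272). The groups did not overlap, with Cyr61 KO lower, in 14 of the 18, where 17.9% of all tested genes did so. Dropping a Control library left 4 (replicate 1), 5 (replicate 2) or 11 (replicate 3) called, dropping a Cyr61 KO library 0 (replicate 1), 0 (replicate 2) or 9 (replicate 3), scaling by library totals 0, DESeq2 called 13 and limma voom 15. Without Cyr61 KO replicate 1 or 2, 0.0215% and 0.086% of all tested genes were called lower. DESeq2 called 9.84% of the genes given an adjusted p lower, and limma voom 17.8% of all tested genes. Receptors and growth factors that proteoglycans bind had 1 of 20 called lower and 0 higher (median -0.61). The called gene was Ctgf, also called Ccn2, a matricellular protein that decorin binds, at -2.59 ± 0.36 (SE; edgeR adjusted p = 0.0176). That count was 4 when replicate 3 of either group was dropped, and 0 when Cyr61 KO replicate 1 or 2 was, or with library totals, and 7 with DESeq2. For both lists, the other shares of all tested genes with 1 library dropped or with library totals are those given for Lum.

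**Figure D4:**
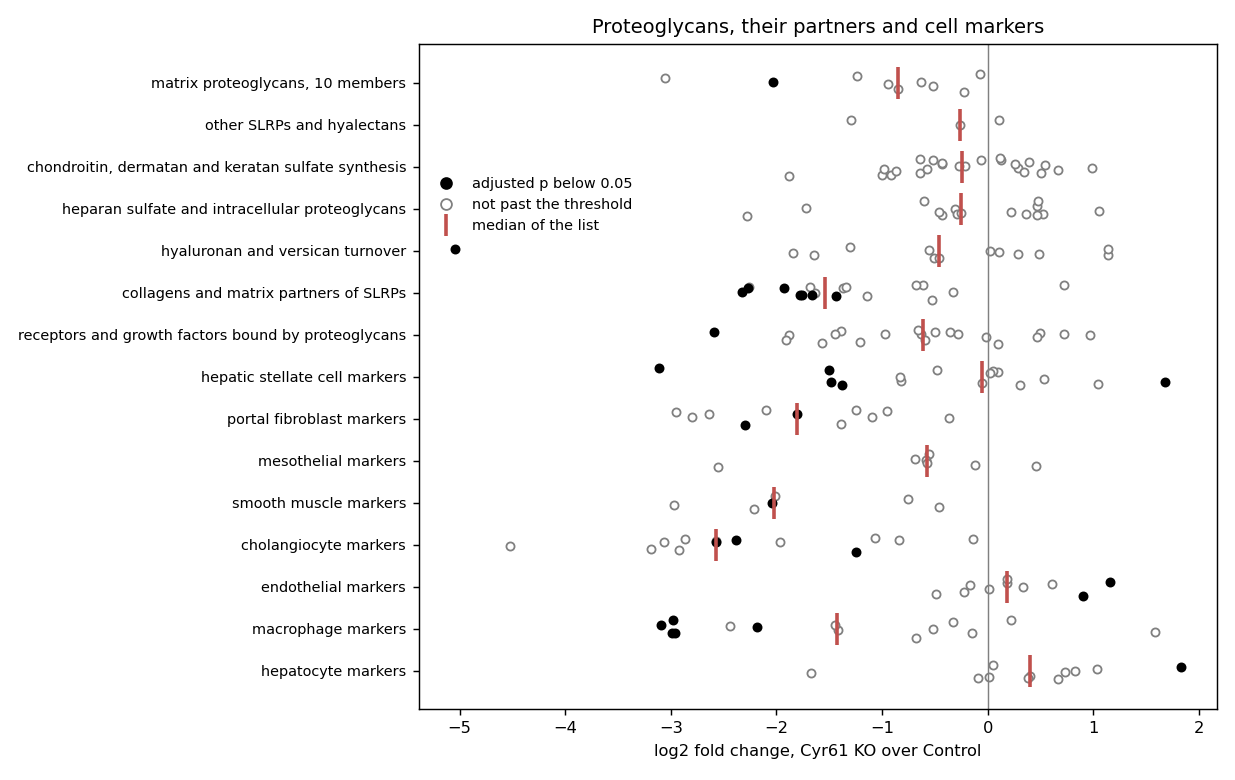
Log2 fold change of Cyr61 KO over Control (horizontal axis) of each tested gene, one row per list of proteoglycans, partners or cell markers; filled circles mark an adjusted p below 0.05 by edgeR and red ticks the median of a list. The 9 tested proteoglycan genes have a median of -0.85, the collagens and other partners -1.54, portal fibroblast markers -1.81 and hepatic stellate cell markers -0.05.

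Markers of the cells that make these proteins differed in more than 1 direction. Of 15 hepatic stellate cell markers 4 were called lower and 1 higher, at a median of -0.05, where 2.37% of all tested genes were called lower and 1.07% higher. Those called lower included Cygb (cytoglobin) at -1.51 ± 0.24, Tcf21 at -1.48 ± 0.30 and Des (desmin) at -1.38, and the 1 higher was Colec10, a collectin, at 1.67 ± 0.28 (SE; edgeR adjusted p = 0.0237, 0.0390, 0.0429 and 0.0265). Des was named after its value was seen, and the call of Colec10 was lost when Control replicate 1 or Cyr61 KO replicate 1 or 2 was dropped. All tested genes called higher then numbered 43, 4 and 12, against 145 with every library kept. The list summed to 319 to 420 CPM in Cyr61 KO livers and 407 to 578 CPM in Control livers. An unadjusted p under 0.05 was reached by 9 of the 15, where 27.4% of all tested genes did so. The groups did not overlap in 7 with Cyr61 KO lower and in 3 with it higher, against 17.9% and 17.3% of all tested genes. Lrat and Reln, defining genes of these cells, were at 0.09 and 0.05 on the log2 fold change scale (edgeR adjusted p = 0.840 and 0.918). They were named outside the rule for naming genes and do not stand for the list. Of 11 portal fibroblast markers 2 were called lower and 0 higher, Dpt (dermatopontin) at -2.30 ± 0.32 and Cd34 at -1.81 ± 0.38 (SE; edgeR adjusted p = 0.0176 and 0.0428), at a median of -1.81 and sums of 98.2 to 119 CPM in Cyr61 KO livers and 207 to 470 CPM in Control livers. Most of these sums was Gas6, at means of 80.7 CPM in Cyr61 KO livers and 192 CPM in Control livers. No stellate or portal fibroblast marker was at 0 in every library, and Gli1, a defining gene of the portal list, was at most 0.426 CPM in Cyr61 KO livers and 0.516 CPM in Control livers. Their part in the result for Lum was not tested. Stellate markers called lower numbered 2 when Control replicate 1 was dropped, 1 when Cyr61 KO replicate 1 or 2 was, and 3 or 4 otherwise. Portal fibroblast markers called lower numbered 0 when Cyr61 KO replicate 1 or 2 was dropped, 1 when Control replicate 1 or 2 was, 2 when Cyr61 KO replicate 3 was and 4 when Control replicate 3 was. With library totals 1 stellate and 0 portal fibroblast markers were called lower, and with DESeq2 5 and 7. Library totals called 0.17% of all tested genes lower, and DESeq2 9.84% of the genes given an adjusted p. The shares without a Control library or without Cyr61 KO replicate 3 are those given for Lum. Without Cyr61 KO replicate 1 or 2, 0.0215% and 0.086% of all tested genes were called lower.

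Some markers of other cells also differed between the groups, and their part in the proteoglycan results was not tested. An unadjusted p under 0.05 was reached by 27.4% of all tested genes in either direction. By edgeR 2.37% of all tested genes were called lower and 1.07% higher. The shares called lower with 1 library dropped or with library totals are those given for Lum. Smooth muscle markers had 1 of 6 called lower (Tagln at -2.04 ± 0.38 SE, edgeR adjusted p = 0.0328), with sums of 18.6 to 21.2 CPM in Cyr61 KO livers and 33.5 to 120.3 CPM in Control livers, the highest in Control replicate 2. Mesothelial markers had 0 of 7 called by edgeR, 1 at an unadjusted p under 0.05 and 1 called by DESeq2, with sums of 16.6 to 42.0 CPM in Cyr61 KO livers and 28.0 to 78.6 CPM in Control livers. Gpm6a and Krt7 (Krt7 is also a bile duct gene) were at -0.69 ± 0.39 and -2.56 ± 0.73 (SE; edgeR adjusted p = 0.276 and 0.0811). Cholangiocyte markers had 3 of 13 called lower, Krt23 at -2.57, St14 at -2.39 and Krt18 at -1.25, with sums of 593 to 832 CPM in Cyr61 KO livers and 1630 to 2565 CPM in Control livers. Much of these sums was Krt8 and Krt18, at means of 356 and 245 CPM in Cyr61 KO livers and 744 and 582 CPM in Control livers. In Control replicate 2, Spp1 alone was at 1113 CPM. Macrophage markers had 5 of 14 called lower and 0 higher, among them Trem2 at -3.09, Ms4a7 at -2.99, Gpnmb at -2.98 and Itgax at -2.96, with sums of 233 to 666 CPM in Cyr61 KO livers and 792 to 1197 CPM in Control livers. Of the 14, 12 were below 0, while Timd4 at 1.58 (edgeR adjusted p = 0.0627) and Clec4f at 0.22 were above it. Vsig4 at -0.15 and Marco at -0.33 did not pass (edgeR adjusted p = 0.816 and 0.760). Timd4, Clec4f, Vsig4 and Marco were named after their values were seen. Endothelial markers had 2 of 10 called higher, Kdr at 1.16 and Clec4g at 0.90, and hepatocyte markers 1 of 11 higher, Cyp2e1 at 1.83. An unadjusted p under 0.05 was reached by 2 of the 10 and 2 of the 11, shares below that of all tested genes. Among the hepatocyte markers the other was Ass1, which was lower at -1.67 (edgeR adjusted p = 0.125) and was named after its value was seen. Markers called lower in smooth muscle, cholangiocytes and macrophages numbered 0, 0 and 0 when Cyr61 KO replicate 1 was dropped, 0, 0 and 2 when Cyr61 KO replicate 2 was, and 1, 3 and 8 when Cyr61 KO replicate 3 was. They numbered 2, 1 and 2 when Control replicate 1 was dropped, 1, 1 and 2 when Control replicate 2 was, and 2, 8 and 6 when Control replicate 3 was. Endothelial and hepatocyte markers called higher numbered 0 when Control replicate 1 or Cyr61 KO replicate 1 or 2 was dropped. All tested genes called higher then numbered 43, 4 and 12, against 145 with every library kept. With library totals 0 smooth muscle, 1 cholangiocyte and 0 macrophage markers were called lower and 0 endothelial and 0 hepatocyte markers higher, and with DESeq2 these counts were 5, 9, 7, 2 and 2. Over all genes, library totals called 27 higher. DESeq2 called 9.84% of the genes given an adjusted p lower, and 847 genes higher.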

How the data were processed

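The authors deposited raw read counts per gene for each of 6 liver libraries. Trimmomatic 0.38, STAR 2.6.1a and the builds mm10 and hg38 are named in the submitters' processing notes; the annotation is not given in the sources used here. Per the labels' protocols the kit is directional, so the counts of the reverse strand were used, the opposite strand holding 0.928% to 1.35% of the stranded counts. A series table matched the unstranded counts in 100% of the 24384 rows compared and was not tested. Unmapped, multimapping, ambiguous and non-gene reads stayed out; the last were 4.27% to 25.7% of reads.

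Genes were tested in R 4.3.3 with edgeR 4.0.16 (quasi-likelihood F test, two-sided; low counts removed by filterByExpr, min.count 10 and min.total.count 15; TMM; group term only). Standard errors were obtained by dividing the size of the log2 fold change by the root of F. Alternatives used DESeq2 1.42.0, limma 3.58.1, other scalings and filters, unstranded counts, a replicate block, and each library left out. In 3 simulations with 200 changed genes, edgeR recovered 11.7% of 2-fold and 77% of 4-fold changes, with a mean of 6.33 false calls. DESeq2 recovered 27.7% and 83.7%, with a mean of 38 false calls. A gene that did not pass is therefore not shown to be unchanged. No pair of replicates agreed within sampling noise (chi-square per degree of freedom of 54.9 or more). Precision follows the counts given, and limits for a count of 0 cover counting error only.

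The members and lists were chosen with earlier results of these data known. Named are the 10 members, Cyr61, up to 4 called genes of each list by p (or the 2 with the highest mean CPM where none was called), and the 3 most similar profiles for Lum, Dcn, Bgn and Vcan. One called gene of these lists is not reported here. Members and 14 other lists name 219 genes, and 217 of these were found. Positions and exon lengths are from GENCODE M21 (GRCm38), promoters from RefSeq, without chromosome 18. Protein sequences were not used here.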

Additional observations from a re-analysis of the deposited data

How the results depend on the processing

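Of the 9 tested proteoglycan genes edgeR called 1 lower, Lum. DESeq2 called 2 (Lum and Vcan), limma voom with quality weights 3 (Lum, Dcn and Vcan), edgeR without a low-count filter 2 (Lum and Vcan) and edgeR on library totals without TMM 0. Leaving out 1 library gave 0 to 2. The count of members called higher was 0 under every alternative run. The member median of -0.85 ran from -1.15 (library totals, where the median of all genes moved to -0.30) to -0.42 (voom), within the spread between replicates. Over all genes, 322 were called lower and 145 higher, against 1414 and 847 with DESeq2, 2409 and 2074 with voom, 23 and 27 with library totals, 666 and 278 without a filter, and 3 to 720 lower and 4 to 169 higher when 1 library was left out. Signs turned for Ogn with voom (0.13), for Prelp with voom (0.089) and in the range of -0.34 to 0.24 when 1 library was dropped (above 0 when it was Control replicate 2 or Cyr61 KO replicate 1), and for Omd in the range of -0.38 to 0.045 (above 0 when it was Control replicate 1); none of these passed, and the cause was not tested. Vcan could not be tested under a filter of 1 CPM in 3 libraries. The replicate number as a block gave 1 member called lower, with Lum at -2.07 (edgeR adjusted p = 0.00413), and 471 genes lower and 162 higher. Same-numbered libraries did not deviate together (correlations of their deviations from the group means of -0.062, -0.239 and -0.452), so the numbers are not taken as pairs. At 0 to 61 counts, Vcan and Aspn are limited by depth.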
